A study of Mus musculus with 24 samples.

Results

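The genes described here are 3 metallothionein genes and 3 genes that sense or move zinc: Mt1, Mt2, Mt3, Mtf1, Slc30a1 and Slc39a14, which are 6 of the 50686 genes in each deposited table. They were chosen by name, and all 6 were read in every library with at least 1 M gene counts (M, mega), which held for 23 of 24 libraries. The series compared Pank1-/- Syn-Pank2-/- double knockout mice (dKO) with wild type mice (WT) of both sexes at day 10 and day 20, to ask how gene expression differs in a model of pantothenate kinase-associated neurodegeneration. RNA came from frozen tissue labelled as back left brain and was sequenced as stranded mRNA.

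There were 8 groups of 3 libraries. They were dKO females, dKO males, WT females and WT males at day 10, and the same at day 20. Of the dKO males at day 10, 2 libraries were used. All mice shared the C57BL/6 background, and no treatment is given for any group. The labels do not say what Syn stands for, which exons are missing in the knockout, or whether each library came from its own animal. Every p below is therefore about the spread between libraries, part of which may be technical. Gene counts ran from 9.19 to 44.7 M in the 23 libraries, so that 1 count was 0.0224 to 0.109 counts per 1 M gene counts before TMM scaling. Levels below are in CPM (counts per 1 M gene counts, scaled by TMM). Library dKO male day 10 replicate 3 held 45964 gene counts and was not used. Pank1 averaged 7.49 ± 0.46 CPM in dKO and 22.7 ± 2.34 CPM in WT at day 20, and Pank2 averaged 42.0 ± 3.16 CPM in dKO and 56.5 ± 3.32 CPM in WT (SD, n = 6 each), as counts over the whole gene. At day 10 Pank1 averaged 8.13 ± 0.67 CPM in dKO (n = 5) and 22.7 ± 1.64 CPM in WT (n = 6). Pank2 averaged 49.6 ± 3.02 CPM in dKO and 52.5 ± 3.42 CPM in WT at day 10, a difference that did not pass the test (edgeR adjusted p = 0.314). No cell type marker in the lists used here was at 0 in a group, and neuronal, astrocytic and oligodendrocyte markers were all present. The library dKO male day 10 replicate 2 stood apart, with choroid plexus markers summing to 7.42 CPM against 245 to 601 CPM in the other 10 libraries of day 10, and granule neuron markers to 278 CPM against 800 to 1984 CPM. WT female day 10 replicate 3 stood apart for oligodendrocyte markers, and fitted changes that turn on either library are given with and without it.

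Metallothioneins are small, cysteine-rich proteins that bind zinc and copper and release them again. In mammals, zinc activates the transcription factor MTF1, which binds metal response elements in the promoters of Mt1, Mt2 and the exporter gene Slc30a1. A cell with more free zinc then makes more of the proteins that bind it or pump it out. Mt1 and Mt2 are also induced by glucocorticoids, and in brain they are expressed mostly by astrocytes. Mt3 is the form enriched in nervous tissue and is largely unresponsive to metals.

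The promoters of Mt1, Mt2, Mt3 and Slc30a1 are shown because these genes are known for different responses to metal and moved differently in these data. Each line holds the 250 bases upstream of the RefSeq start on GRCm38.p6, read in the direction of the gene, and capitals mark the core of the metal response element, spelled TGCACNC or TGCGCNC and searched on both strands.
Mt1: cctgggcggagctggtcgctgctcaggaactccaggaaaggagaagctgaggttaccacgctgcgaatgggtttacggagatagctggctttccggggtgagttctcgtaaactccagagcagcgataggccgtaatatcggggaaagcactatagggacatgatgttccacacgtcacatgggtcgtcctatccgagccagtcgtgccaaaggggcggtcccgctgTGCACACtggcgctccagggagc
Mt2: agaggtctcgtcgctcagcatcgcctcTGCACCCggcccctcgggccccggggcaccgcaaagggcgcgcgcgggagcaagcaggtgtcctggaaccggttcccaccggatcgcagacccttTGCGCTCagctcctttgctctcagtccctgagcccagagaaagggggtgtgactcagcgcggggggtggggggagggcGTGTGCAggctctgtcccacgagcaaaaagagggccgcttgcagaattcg
Mt3: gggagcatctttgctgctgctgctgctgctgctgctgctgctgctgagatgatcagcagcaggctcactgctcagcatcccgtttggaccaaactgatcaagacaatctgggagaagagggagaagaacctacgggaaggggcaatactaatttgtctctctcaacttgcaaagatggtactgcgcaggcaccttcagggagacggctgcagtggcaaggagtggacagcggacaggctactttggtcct
Slc30a1: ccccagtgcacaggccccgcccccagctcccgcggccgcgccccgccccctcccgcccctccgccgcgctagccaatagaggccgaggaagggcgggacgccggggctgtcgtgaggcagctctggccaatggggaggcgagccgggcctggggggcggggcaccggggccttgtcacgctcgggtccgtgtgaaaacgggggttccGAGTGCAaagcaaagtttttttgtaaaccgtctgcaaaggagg

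The Mt1 window, chr8:94178839-94179088 on the plus strand, held 1 match. The Mt2 window, chr8:94172368-94172617 on the plus strand, held 3 matches that did not overlap each other, and the Mt3 window, chr8:94152357-94152606 on the plus strand, held 0. The Slc30a1 window, chr1:191906531-191906780 on the plus strand, held 1. Among 32851 mouse promoters of the same length, 21.4% held at least 1 match, 5.17% at least 2 and 1.26% at least 3. With the 50 bases after the start added, the matches numbered 3 in Mt1, 4 in Mt2, 1 in Mt3, 2 in Slc30a1 and 0 in Mtf1, and 1.97% of all such windows held at least 3. The glucocorticoid half-site AGAACA, searched on both strands, was found in the 250 bases before Mtf1 (1 match) and in none of the 4 promoters printed above; 16.1% of promoters held it. RefSeq's table had a promoter for 5 of the 6 genes. A match is a string of letters and not a shown binding site. Sequence beyond these windows was not searched, so a count of 0 says nothing about elements farther away.

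**Figure D1:**
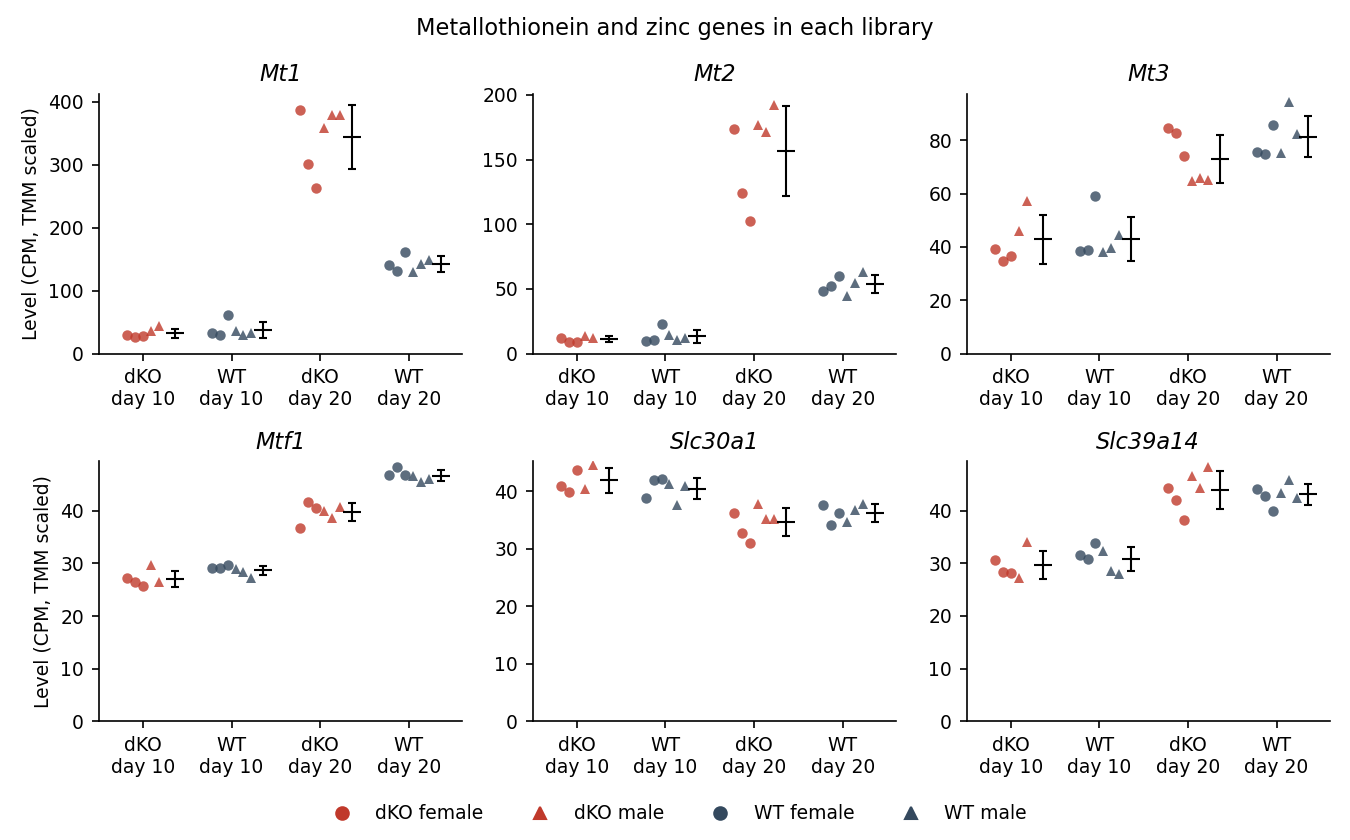
Level of each of the 6 genes in each of the 23 libraries (CPM, TMM scaled, linear axes from 0), with dKO left of WT at each day, circles for females and triangles for males; the cross and bars are the group mean and SD. At day 20 all 6 dKO libraries lie above all 6 WT libraries for Mt1 (263 to 386 against 129 to 161 CPM) and Mt2 (103 to 192 against 44.4 to 63.3 CPM), and below them for Mtf1 (36.8 to 41.8 against 45.4 to 48.3 CPM).

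The dKO brain at day 20 held more mRNA of both inducible metallothioneins, slightly less of their zinc sensor Mtf1, and amounts of the exporter Slc30a1 and the importer Slc39a14 that did not pass the test of a difference. Of the 6 genes, 2 were called higher and 1 lower at an adjusted p under 0.05, where 38.8% of all 21657 tested genes were called in that comparison (19.4% higher and 19.5% lower). The count of 3 of 6 is therefore near the background. By the size of the change, 2.02% of tested genes had a larger log2 change than Mt1 and 1.32% a larger one than Mt2. The groups of 6 did not overlap for 3 of the 6 genes, against 20.1% of all tested genes.

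Mt1 encodes an inducible metallothionein (ENSMUSG00000031765, chromosome 8, 94179082 to 94180327, plus strand of GRCm38). It stood at 386, 302 and 263 CPM in dKO females and at 357, 378 and 378 CPM in dKO males at day 20, against 141, 131 and 161 CPM in WT females and 129, 143 and 149 CPM in WT males. Every dKO library was above every WT library, and the 3 dKO males lay closer together than the 3 dKO females. The means were 344 ± 50.3 CPM in dKO and 142 ± 12 CPM in WT (SD, n = 6 each). The fitted change was 2.41-fold (95% confidence interval 2.0 to 2.90), or 1.27 ± 0.14 on the log2 scale (SE, edgeR adjusted p = 1.60e-06). It was 1.14 ± 0.19 in females (edgeR adjusted p = 0.00125) and 1.40 ± 0.19 in males (edgeR adjusted p = 3.04e-05).

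Mt2 is the neighbouring inducible gene (ENSMUSG00000031762, chromosome 8, 94172664 to 94173568, plus strand). It had 174, 124 and 103 CPM in dKO females and 177, 171 and 192 CPM in dKO males at day 20, against 48.6, 52.4 and 59.8 CPM in WT females and 44.4, 54.9 and 63.3 CPM in WT males. The order of the dKO females was the one seen for Mt1, and the groups again did not overlap. Mt2 averaged 157 ± 35.0 CPM in dKO and 53.9 ± 7.0 CPM in WT (SD, n = 6 each), a fitted 2.88-fold change (95% confidence interval 2.26 to 3.67; log2 1.53 ± 0.18, edgeR adjusted p = 4.54e-06). In females the log2 change was 1.32 ± 0.25 (edgeR adjusted p = 0.00298) and in males 1.73 ± 0.25 (edgeR adjusted p = 5.49e-05). Mt2 CPM over Mt1 CPM in the same library was 0.391 to 0.507 in dKO and 0.343 to 0.424 in WT at day 20, ranges that overlap.

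Mt2 is overlapped on the opposite strand by the antisense RNA Gm45774, and 45.5% of the 50-base windows of its transcript also occur, on the other strand, in that RNA. The stranded counts used here gave Gm45774 1 to 8 counts per library, beside 107 to 4468 counts for Mt2. In the unstranded counts Mt2 fell to 13.8 ± 4.30 CPM in dKO and 4.70 ± 1.04 CPM in WT at day 20, which is 8.78% and 8.72% of the stranded level, so that the level of Mt2 depends on the strand setting. Its log2 change at day 20 was 1.57 with unstranded counts (edgeR adjusted p = 5.14e-06). At day 10 it was -0.076 ± 0.39 with unstranded counts (edgeR adjusted p = 0.936), against -0.26 ± 0.22 with stranded counts. These day 10 values do not differ beyond their SE, which was larger with unstranded counts. The other members shared 0 to 8.86% of such windows with another gene, and their unstranded levels were 91.5 to 108% of the stranded ones.

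Mt3 encodes the metallothionein of nervous tissue (ENSMUSG00000031760, chromosome 8, 94152607 to 94154146, plus strand). It was read at 84.5, 82.7 and 74.2 CPM in dKO females and 64.9, 65.9 and 65.2 CPM in dKO males at day 20, against 75.7, 74.9 and 85.6 CPM in WT females and 75.4, 94.5 and 82.2 CPM in WT males. The females overlapped, while the 3 dKO males lay below the 3 WT males. Over both sexes the means were 72.9 ± 9.0 CPM in dKO and 81.4 ± 7.76 CPM in WT (SD, n = 6 each), and the log2 change of -0.16 ± 0.09 was not called (edgeR adjusted p = 0.164). It was called without WT female day 10 replicate 3 (-0.16 ± 0.06, edgeR adjusted p = 0.0417) and when only the day 20 libraries were fitted (-0.16 ± 0.05, edgeR adjusted p = 0.0202).

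In males Mt3 was called lower (log2 -0.36 ± 0.13, edgeR adjusted p = 0.0327), and in females the change was 0.034 ± 0.13 (edgeR adjusted p = 0.903). The male call was lost without any single dKO male of day 20, and without WT male day 20 replicate 2 or 3 (edgeR adjusted p = 0.0581 to 0.151). The difference between the sexes was -0.39 ± 0.18 and was not called (edgeR adjusted p = 0.305), though it was when only the day 20 libraries were fitted (-0.39, edgeR adjusted p = 0.0391). In males 4 of the 6 genes were called, against 35.3% of all genes, and in females 3 of 6, against 10.7%.

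**Figure D2:**
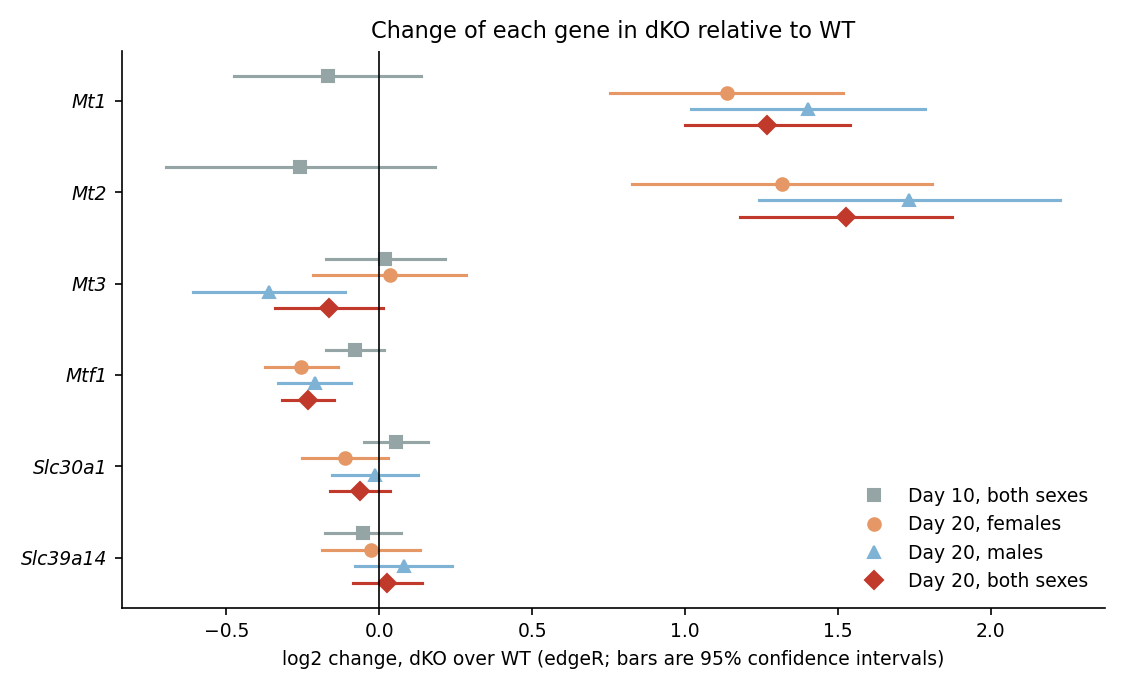
Fitted log2 change in dKO over WT for each gene at day 10 (squares) and day 20 (females, males and both sexes), with 95% confidence intervals. The day 20 estimates of Mt1 (1.27) and Mt2 (1.53) lie far to the right of 0 in both sexes, that of Mtf1 (-0.23) lies just left of it, and the day 10 intervals of all 6 genes cross 0.

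Mtf1 encodes the zinc-sensing activator of the metallothionein promoters (ENSMUSG00000028890, chromosome 4, 124802104 to 124849800, plus strand). It stood at 36.8, 41.8 and 40.6 CPM in dKO females and 40.0, 38.7 and 40.7 CPM in dKO males at day 20, against 46.9, 48.3 and 46.9 CPM in WT females and 46.6, 45.4 and 46.0 CPM in WT males. All 6 dKO libraries were below all 6 WT libraries. The means of 39.8 ± 1.75 CPM in dKO and 46.7 ± 0.98 CPM in WT (SD, n = 6 each) differed by a log2 change of -0.23 ± 0.04 (0.851-fold, 95% confidence interval 0.803 to 0.902, edgeR adjusted p = 0.000177). The change was called in females (-0.25 ± 0.06, edgeR adjusted p = 0.00889) and in males (-0.21 ± 0.06, edgeR adjusted p = 0.00923), and the female call was lost without dKO female day 20 replicate 1 (edgeR adjusted p = 0.0673) and with no filter on low counts (edgeR adjusted p = 0.0524). Its mRNA therefore moved opposite to that of Mt1 and Mt2 at day 20; the activity of the protein was not measured.

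Slc30a1 encodes the plasma membrane zinc exporter (ENSMUSG00000037434, chromosome 1, 191906767 to 191913247, plus strand). It had 31.0 to 37.8 CPM in dKO (median 35.1) and 34.2 to 37.7 CPM in WT (median 36.5) at day 20. The WT range lay inside the dKO range, which reached lower. The change was 0.957-fold (95% confidence interval 0.894 to 1.03, log2 -0.063 ± 0.051, edgeR adjusted p = 0.354). Slc39a14 encodes a plasma membrane importer of zinc, iron and manganese (ENSMUSG00000022094, chromosome 14, 70303469 to 70351425, minus strand). It had 38.2 to 48.4 CPM in dKO (median 44.3) and 40.0 to 45.9 CPM in WT (median 43.1). Its change was 1.02-fold (95% confidence interval 0.942 to 1.10; log2 0.026 ± 0.057, edgeR adjusted p = 0.757). The upper bound of the fold change of Slc30a1 lies below the lower bound of Mt1 and of Mt2. Whether zinc or MTF1 bears on any of these levels was not tested.

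At day 10 none of the 6 genes was called, against 5.79% of all tested genes (3.88% higher and 1.91% lower), shares that depend heavily on the library left out. The 1254 genes called became 66 without WT male day 10 replicate 1 and 2574 without WT male day 10 replicate 3. Mt1 was at 29.2, 26.3 and 27.9 CPM in dKO females and at 36.2 and 43.4 CPM in dKO males, against 32.9, 30.4 and 61.7 CPM in WT females and 36.5, 30.2 and 32.8 CPM in WT males. Mt2 was at 11.9, 9.14 and 8.91 CPM in dKO females and at 13.7 and 12.4 CPM in dKO males, against 9.89, 10.4 and 23.3 CPM in WT females and 14.3, 10.9 and 12 CPM in WT males. The groups overlapped, and 1 library, WT female day 10 replicate 3, was the highest for Mt1, Mt2 and Mt3 in the whole of day 10.

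The day 10 log2 change of Mt1 was -0.17 ± 0.16 (edgeR adjusted p = 0.551) and that of Mt2 -0.26 ± 0.22 (edgeR adjusted p = 0.519). Without WT female day 10 replicate 3 they were 0.036 ± 0.095 (edgeR adjusted p = 0.855) and 0.022 ± 0.16 (edgeR adjusted p = 0.954). The direction at day 10 thus depended on that library. Without dKO male day 10 replicate 2 they were -0.25 ± 0.19 (edgeR adjusted p = 0.617) and -0.25 ± 0.28 (edgeR adjusted p = 0.764). The summed oligodendrocyte markers of WT female day 10 replicate 3 were also apart, at 11514 CPM against 5695 to 7621 CPM in the other WT libraries of day 10, its neuronal markers summed to 2399 CPM against 1894 to 2073 CPM, and its astrocyte markers to 4150 CPM against 3148 to 3570 CPM; the part of these cells in its metallothionein level was not tested.

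Mt3 at day 10 had 39.2, 34.9 and 36.5 CPM in dKO females and 46.1 and 57.4 CPM in dKO males, against 38.4, 39.0 and 59.3 CPM in WT females and 38.2, 39.5 and 44.7 CPM in WT males. Both dKO males exceeded the 3 WT males, while the females of the genotypes overlapped. Over both sexes the change was 0.021 ± 0.099 (edgeR adjusted p = 0.928), and the difference between the sexes, 0.67 ± 0.20, was not called (edgeR adjusted p = 0.314), but it was without dKO male day 10 replicate 1 (0.82, edgeR adjusted p = 0.0238). That fit leaves as the lone dKO male replicate 2, the library nearly without choroid plexus markers and the higher of the pair for Mt3. Without replicate 2 the difference between the sexes was 0.53 ± 0.22 (edgeR adjusted p = 0.903), and the Mt3 change over both sexes was -0.077 ± 0.11 (edgeR adjusted p = 0.823), of the opposite sign. Within single sexes at day 10 none of the 6 genes was called by edgeR, against 0.591% of genes in females (128) and 0.0139% in males (3). These shares are unstable: DESeq2 called 789 genes in females and 572 in males, and with 1 library left out edgeR called up to 833 higher and 626 lower in females (without dKO female day 10 replicate 1) and up to 2387 higher and 2097 lower in males (without dKO male day 10 replicate 1). DESeq2 called Mt1 lower in females at day 10 (log2 -0.60, DESeq2 adjusted p = 0.0347), where edgeR gave -0.59 (edgeR adjusted p = 0.144) and, without WT female day 10 replicate 3, -0.19 ± 0.14 (edgeR adjusted p = 0.574). Mtf1 ranged from 25.7 to 29.7 CPM in dKO and from 27.2 to 29.6 CPM in WT (log2 -0.0795 ± 0.048, edgeR adjusted p = 0.314). Slc30a1 ranged from 39.9 to 44.6 CPM in dKO and from 37.5 to 42.1 CPM in WT, and Slc39a14 from 27.1 to 34.0 CPM in dKO and from 27.9 to 33.9 CPM in WT; neither was called (edgeR adjusted p = 0.564 and 0.663).

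The difference between the days was tested as the day 20 log2 change minus the day 10 log2 change. It was 1.44 ± 0.21 for Mt1 (edgeR adjusted p = 0.000101) and 1.78 ± 0.28 for Mt2 (edgeR adjusted p = 0.000273), and none of the other 4 genes was called, against 28.7% of all tested genes. Without WT female day 10 replicate 3 the differences of Mt1 and Mt2 were 1.23 ± 0.12 and 1.51 ± 0.20, and without dKO male day 10 replicate 2 they were 1.53 ± 0.24 and 1.78 ± 0.34, all called. Mt3 was at -0.18 ± 0.13 (edgeR adjusted p = 0.323), and without that library at -0.30 ± 0.10, which was called (edgeR adjusted p = 0.020). Mtf1 was at -0.15 ± 0.06 (edgeR adjusted p = 0.0776).

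In the edgeR fit to the 23 libraries, no difference between the sexes in the effect of genotype was called for any of the 6 genes, nor for any of the 21657 genes tested, at either day; the exceptions for Mt3 under other fits are given above. At day 20 edgeR gave 0% of genes called (3284 at an unadjusted p under 0.05), DESeq2 347 and limma-voom 0; at day 10 edgeR gave 0% (2599 at an unadjusted p under 0.05), and DESeq2 and limma-voom 0 each. These counts of 0 depend on the libraries fitted: at day 10 edgeR called 904 higher and 1158 lower without dKO male day 10 replicate 1, and at day 20 it called 528 higher and 563 lower when only the day 20 libraries were fitted, and up to 97 higher (without dKO male day 20 replicate 2) and 58 lower (without WT female day 10 replicate 3) with 1 library left out. The sex difference of Mt1 at day 20 was 0.27 ± 0.27 and that of Mt2 0.42 ± 0.35, and at day 10 they were 0.85 ± 0.31 and 0.64 ± 0.45. Without WT female day 10 replicate 3 the day 10 values were 0.44 ± 0.19 for Mt1 and 0.079 ± 0.32 for Mt2. In WT mice alone, none of the 6 was called between males and females, where 0.0693% of genes were called.

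All 6 genes changed with age in both genotypes, 5 of them higher and 1 lower at day 20 in each. Over the same period 61.6% of all genes were called in dKO (30.3% higher and 31.2% lower) and 51.4% in WT (26.1% higher and 25.3% lower). Mt1 averaged 344 ± 50.3 CPM at day 20 and 32.6 ± 7.12 CPM at day 10 in dKO, a 10.3-fold change (log2 3.36 ± 0.17, edgeR adjusted p = 1.76e-11). In WT it averaged 142 ± 12 CPM at day 20 and 37.4 ± 12.1 CPM at day 10, a 3.80-fold change (log2 1.93 ± 0.14, edgeR adjusted p = 5.24e-09). The rise of Mt2 was 13.5-fold in dKO (log2 3.76 ± 0.23) and 3.93-fold in WT (log2 1.97 ± 0.19). Without WT female day 10 replicate 3 the log2 rises in WT were 2.13 ± 0.09 for Mt1 and 2.25 ± 0.14 for Mt2. In that fit those in dKO were 3.37 ± 0.10 and 3.76 ± 0.15. The developmental rise of both genes was thus larger in dKO, which is the same difference as the genotype by day test above.

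Mt3 rose by 0.73 ± 0.10 on the log2 scale in dKO and by 0.91 ± 0.09 in WT between day 10 and day 20. Without WT female day 10 replicate 3 its rise in WT was 1.04 ± 0.07. Mtf1 rose by 0.55 ± 0.05 in dKO and by 0.70 ± 0.04 in WT, and Slc39a14 by 0.56 ± 0.06 in dKO and 0.48 ± 0.06 in WT. Slc30a1 fell: its log2 change was -0.28 ± 0.05 in dKO (edgeR adjusted p = 0.000117) and -0.16 ± 0.05 in WT (edgeR adjusted p = 0.0110). The exporter gene was the only member of the 6 that was lower at day 20 than at day 10, in either genotype.

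Compared per kb of merged exons, the metallothioneins were the most abundant of the 6 transcripts at both days. At day 20 in dKO, Mt1 stood at 276 ± 40.4 and Mt2 at 266 ± 59.6 CPM per kb, and Mt3 at 68.4 ± 8.44 CPM per kb. On this length Mt1 and Mt2 do not differ beyond their SD. Per kb of the principal transcript they did not overlap in dKO, at 479 to 704 for Mt1 and 201 to 375 CPM per kb for Mt2. In WT at day 20 the levels were 114 ± 9.65 for Mt1, 91.6 ± 11.9 for Mt2 and 76.3 ± 7.28 CPM per kb for Mt3. Slc30a1, Mtf1 and Slc39a14 were between 4.17 and 6.61 CPM per kb in dKO and between 4.09 and 6.90 CPM per kb in WT at day 20. Of these Slc30a1 was highest in both genotypes per kb of merged exons, and the mean ± SD ranges of Mtf1 and Slc39a14 overlapped in dKO. Per kb of the principal transcript Slc39a14 was highest, at 8.92 ± 0.72 CPM per kb in dKO and 8.76 ± 0.40 in WT, above Slc30a1 at 6.61 ± 0.46 in dKO and 6.90 ± 0.28 in WT, so this order too depends on the length used.

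At day 10 Mt3 led, with 40.2 ± 8.65 CPM per kb in dKO and 40.5 ± 7.74 in WT, over Mt1 with 26.2 ± 5.71 in dKO and 30.0 ± 9.72 in WT and Mt2 with 19.1 ± 3.61 in dKO and 22.9 ± 8.59 in WT. Mt3 had the highest mean at day 10 and Mt1 at day 20, though at day 10 the mean ± SD ranges of neighbours in that order overlapped. With the length of the principal transcript instead, the level of Mt1 at day 20 was 627 ± 91.6 CPM per kb in dKO and 259 ± 21.9 in WT, that of Mt2 307 ± 68.5 in dKO and 105 ± 13.7 in WT, and that of Mt3 136 ± 16.8 in dKO and 152 ± 14.5 in WT. On that scale Mt3 was above Mt2 in WT and below it in dKO, so the order of Mt2 and Mt3 in WT also depends on the length used. Mt1 CPM over Mt3 CPM, which needs no length, was 3.54 to 5.80 in dKO (median 5.04) and 1.51 to 1.89 in WT (median 1.78) at day 20, and 0.746 to 0.785 in dKO (median 0.756) and 0.734 to 1.04 in WT (median 0.818) at day 10.

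**Figure D3:**
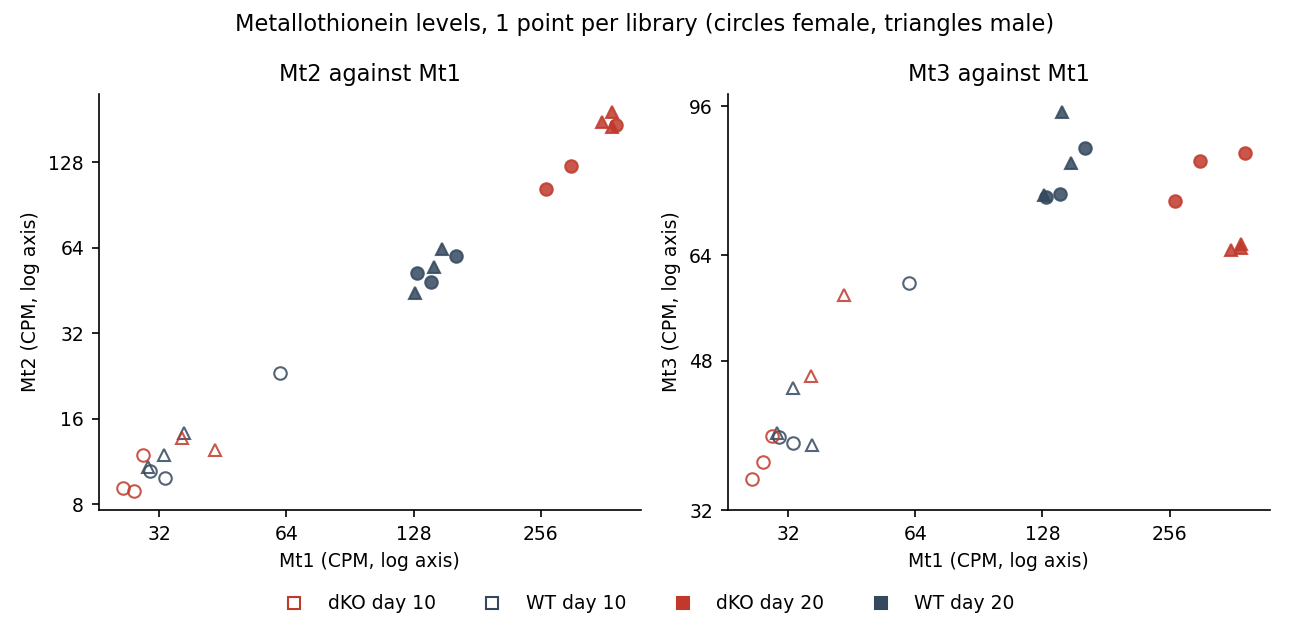
Mt2 (left) and Mt3 (right) against Mt1, 1 point per library, in CPM on log axes; circles are females, triangles males, open points day 10 and filled points day 20. Mt2 lies along a line with Mt1 through all groups (r = 0.996 over 23 libraries), whereas at day 20 the dKO libraries lie to the right of the WT libraries at Mt3 levels of 64.9 to 84.5 CPM in dKO and 74.9 to 94.5 CPM in WT.

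The libraries fall into separate clusters by day and genotype, so each correlation over the 23 libraries of log2 CPM is given with the correlation of deviations from the 8 group means, both as descriptions. Mt1 and Mt2 had r = 0.996 over libraries and 0.912 within groups, and Mt1 and Mt3 had 0.850 over libraries and 0.836 within groups. Mtf1 and Mt1 had 0.809 over libraries and -0.25 within groups. The 3 metallothioneins thus deviated together over libraries that include WT female day 10 replicate 3, which was high for all of them. The correlations here and below were not computed without that library, so how far they rest on it was not tested.

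Genes averaging 5 CPM or more numbered 12796, and among them the 4 nearest to Mt1 were Itpk1, Pink1, Cbx7 and Slc2a1, with r of 0.991, 0.991, 0.989 and 0.989 over libraries and 0.783, 0.887, 0.661 and 0.859 within groups. Itpk1 encodes an inositol phosphate kinase, Pink1 a kinase of mitochondrial quality control, Cbx7 a Polycomb protein and Slc2a1 the glucose transporter of the blood-brain barrier. Each was called higher in dKO at day 20, by 0.41 to 0.84 on the log2 scale, which is less than Mt1. Of all tested genes 19.4% were called higher. The genes in this paragraph were picked by correlation over the same libraries. Their direction at day 20 is therefore partly built into the choice and is no separate evidence. The 4 nearest to Mt2 were Tsc22d3, which encodes a glucocorticoid-induced leucine zipper protein, Ezh1, Itpk1 and Hepacam (r of 0.991, 0.989, 0.989 and 0.989 over libraries, 0.892, 0.635, 0.721 and 0.790 within groups). The 4 nearest to Mt3 were Ogfod1, Asah2, Ndrg2 and Chp1 (r of 0.985, 0.981, 0.981 and 0.981 over libraries, 0.867, 0.881, 0.816 and 0.855 within groups), and of these Chp1 was called at day 20 (log2 -0.15 ± 0.05, edgeR adjusted p = 0.0366).

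Mt1, Mt2, Mt3 and Mt4 lie side by side on chromosome 8, with starts 6.42 kb apart for Mt1 and Mt2, 20.1 kb for Mt2 and Mt3 and 15.4 kb for Mt3 and Mt4. Mt4, the metallothionein of stratified epithelium, had 0 or 1 count in every library and was not tested; a count of 0 allows up to 3 counts. Within 200 kb of the Mt1 start, a distance chosen after the values were seen, 17 genes start, 11 were tested, 4 were called higher and 2 lower at day 20, Mt1 and Mt2 among them, beside 19.4% higher and 19.5% lower of all tested genes. Besides Mt1 and Mt2 the genes called higher were Gm45804 (0.57 ± 0.11, edgeR adjusted p = 0.000235) and Slc12a3 (0.53 ± 0.15, edgeR adjusted p = 0.00928), both more than 90 kb away. Gm45804 lies inside Nup93 on the same strand, so its counts are uncertain. The genes called lower were Nudt21 (-0.16 ± 0.04, edgeR adjusted p = 0.00638) and C78859 (-0.27 ± 0.06, edgeR adjusted p = 0.000879). The neighbours Mt3, Bbs2 and Nup93 were not called (edgeR adjusted p = 0.164, 0.0514 and 0.102).

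**Figure D4:**
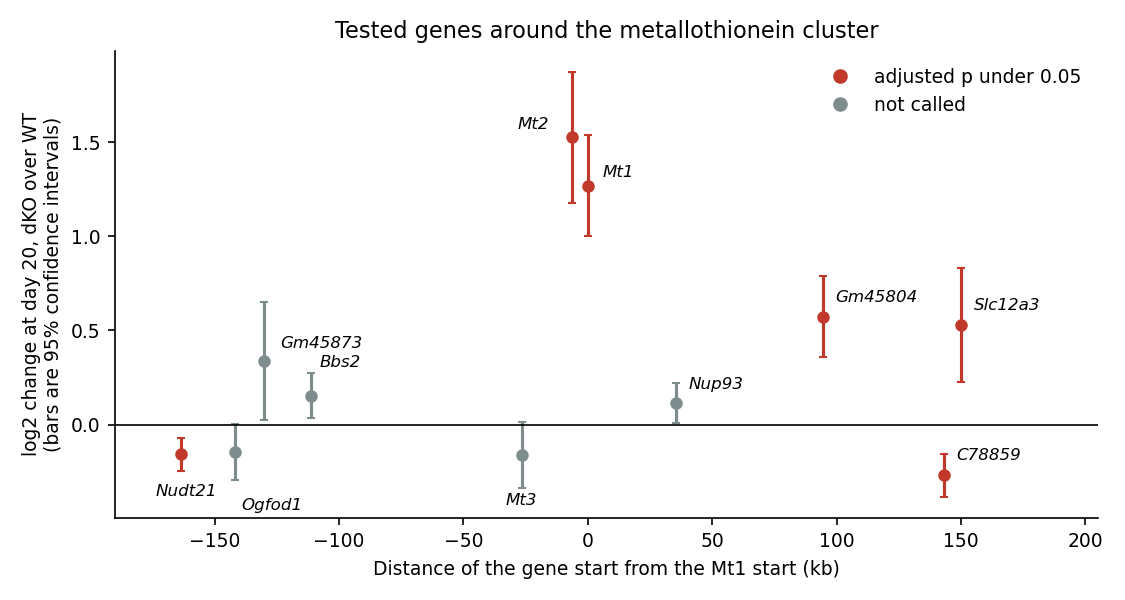
log2 change at day 20 (dKO over WT, with 95% confidence intervals) of the 11 tested genes that start within 200 kb of Mt1, against the distance of each gene start from the Mt1 start in kb. Mt1 (1.27) and Mt2 (1.53) stand above their neighbours, of which Mt3 (-0.16) is the nearest tested one.

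Most other zinc transporter genes were not called at day 20, and the counts below stand beside 38.8% of all tested genes called (19.4% higher and 19.5% lower). Of 9 further exporter genes of the Slc30a family, 8 were tested and 1 was called higher and 1 lower, with a median log2 change of -0.056, beside -0.00037 for all genes tested. Slc30a10, a manganese exporter, averaged 9.87 ± 1.30 CPM in dKO and 14.6 ± 0.43 CPM in WT (log2 -0.58 ± 0.10, edgeR adjusted p = 8.53e-05). Slc30a2 was near its detection limit, at 0.28 ± 0.23 CPM in dKO and 0.085 ± 0.10 CPM in WT, with libraries at 0 in both groups (log2 1.87 ± 0.63, edgeR adjusted p = 0.0188), and 0 exporters were called higher under 5 of 10 other settings and without any of 4 single libraries.

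Of 13 further importer genes of the Slc39a family, all were tested, 0 were called higher and 4 lower, with a median of -0.048; no test sets the importers apart from other genes. Slc39a10, a plasma membrane zinc importer, averaged 74.9 ± 14.9 CPM in dKO and 107 ± 6.29 CPM in WT (log2 -0.54 ± 0.06, edgeR adjusted p = 2.76e-07). Slc39a8, which carries zinc and manganese, averaged 4.24 ± 0.69 CPM in dKO and 6.25 ± 0.52 CPM in WT (log2 -0.57 ± 0.10, edgeR adjusted p = 6.63e-05). The scarce importers Slc39a2 and Slc39a4 were lower too, by log2 changes of -0.59 ± 0.15 (edgeR adjusted p = 0.00301) and -1.55 ± 0.33 (edgeR adjusted p = 0.000726). Slc39a12, an importer abundant in brain and named here after its value was seen, averaged 63.3 ± 6.67 CPM in dKO and 71.2 ± 3.6 CPM in WT and was not called (edgeR adjusted p = 0.145).

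**Figure D5:**
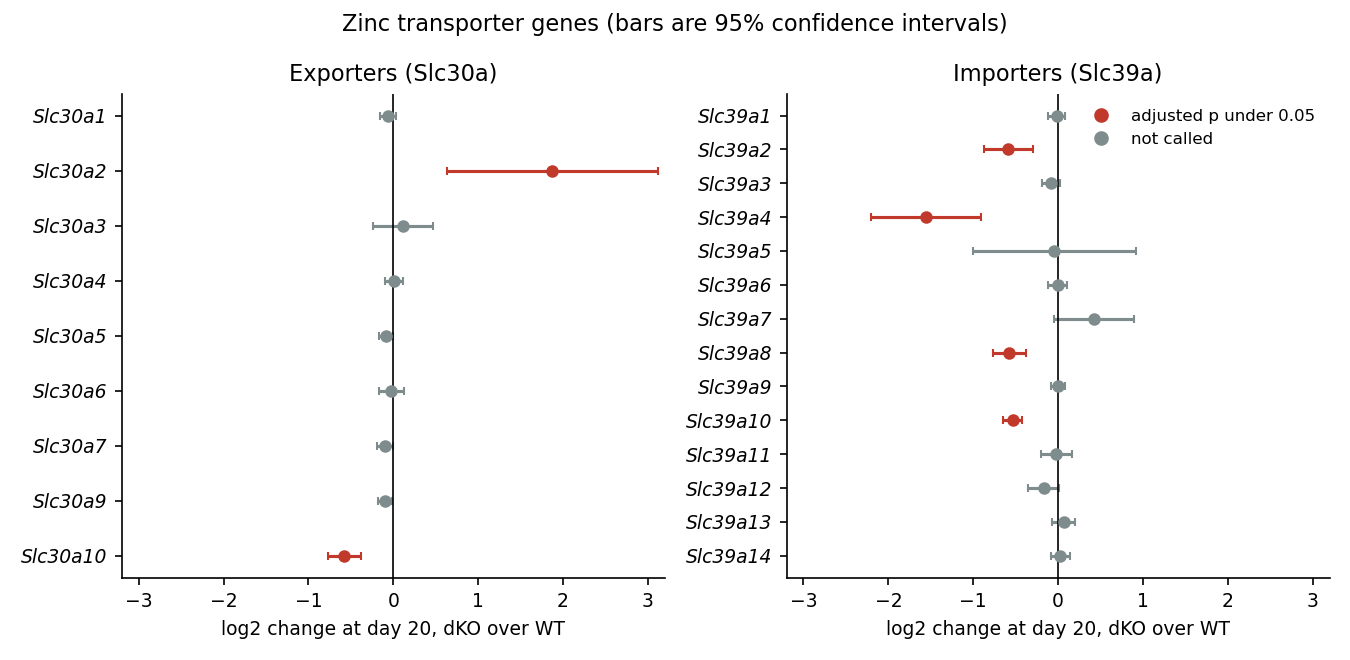
log2 change at day 20 (dKO over WT, with 95% confidence intervals) of each tested exporter gene (left, Slc30a) and importer gene (right, Slc39a). Among the importers the 4 called genes lie left of 0 and the intervals of the others reach or nearly reach it, and among the exporters Slc30a10 lies left of 0 and the scarce Slc30a2 right of it with a wide interval.

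At day 10 the same lists held 1 exporter called higher, Slc30a10 (0.31 ± 0.09, edgeR adjusted p = 0.0492), and 1 importer called higher, Slc39a6 (0.23 ± 0.06, edgeR adjusted p = 0.0335). Slc30a10 averaged 40.1 ± 4.30 CPM in dKO and 32.5 ± 4.81 CPM in WT at day 10, the opposite direction to day 20. Slc39a6 averaged 69.4 ± 4.68 CPM in dKO and 59.1 ± 6.45 CPM in WT. The Slc30a10 call was lost in 18 of 23 fits with 1 library left out, and the Slc39a6 call in 6 of them. Of all tested genes 3.88% were called higher at day 10, and without dKO male day 10 replicate 2 0 genes of either list were called.

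A short list of other zinc-responsive or metallothionein genes was mixed. Of Mt4, Gclc, Ndrg1, Csrp1 and Selenow, 4 were tested at day 20, 1 was called higher and 1 lower, with a median of -0.075. Gclc, the catalytic subunit of the enzyme that starts glutathione synthesis, averaged 60.1 ± 4.13 CPM in dKO and 53.7 ± 3.36 CPM in WT (log2 0.16 ± 0.05, edgeR adjusted p = 0.0131). Ndrg1, a myelin- and stress-related gene, averaged 71.0 ± 8.0 CPM in dKO and 102 ± 16.8 CPM in WT (log2 -0.51 ± 0.09, edgeR adjusted p = 6.88e-05). At day 10 Selenow, a selenoprotein gene, was the 1 called, at 0.17 ± 0.05 (edgeR adjusted p = 0.0374), and without any of 7 single libraries 0 were.

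Metallothioneins also bind copper. Of 10 copper genes, 2 were called higher and 5 lower at day 20, with a median of -0.15, beside 19.4% higher and 19.5% lower of all tested genes. Cp, which encodes ceruloplasmin, the copper-carrying ferroxidase, averaged 41.1 ± 5.95 CPM in dKO and 27 ± 3.76 CPM in WT (log2 0.60 ± 0.09, edgeR adjusted p = 1.64e-05). The copper importer Slc31a1 (-0.35 ± 0.06, edgeR adjusted p = 3.92e-05), the copper pump Atp7a (-0.33 ± 0.06, edgeR adjusted p = 0.000137) and the mitochondrial copper chaperone Cox17 (-0.43 ± 0.12, edgeR adjusted p = 0.00579) were lower. At day 10, 1 was called higher, Sod1, the copper and zinc superoxide dismutase (0.22 ± 0.06, edgeR adjusted p = 0.0312), beside 3.88% of all tested genes, and 0 were without any of 5 single libraries.

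Because Mt1 and Mt2 also answer to glucocorticoids, 10 well-known glucocorticoid targets were set beside them. At day 20 all 10 were called higher in dKO, with a median log2 change of 1.59. Of all tested genes 19.4% were called higher at day 20, with a median of -0.00037. At day 10 0 of 10 were called, with a median of 0.024, beside 5.79% of all tested genes called. The 10 targets were already known to be higher in these libraries when the list was made, so the count is a description and no independent evidence. Hif3a averaged 72.5 ± 10.8 CPM in dKO and 14.2 ± 2.80 CPM in WT at day 20 (log2 2.36 ± 0.11, edgeR adjusted p = 5.63e-12). Map3k6 averaged 19.8 ± 7.05 CPM in dKO and 2.92 ± 0.27 CPM in WT (log2 2.72 ± 0.15, edgeR adjusted p = 1.66e-11), and Sult1a1 averaged 25.5 ± 3.46 CPM in dKO and 8.03 ± 1.25 CPM in WT (log2 1.67 ± 0.12, edgeR adjusted p = 6.27e-10). Fkbp5, a cochaperone of the glucocorticoid receptor, had a log2 change of 2.24 ± 0.10 at day 20 and 0.22 ± 0.11 at day 10, when it was not called (edgeR adjusted p = 0.224). Whether glucocorticoids or zinc bear on the metallothionein levels was not tested.

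In bulk tissue, fewer cells of a type and less RNA per cell cannot be told apart. Astrocyte markers, of a cell type known to express Mt1 and Mt2, summed to 4485 to 5132 CPM in dKO and 4948 to 5255 CPM in WT at day 20, ranges that overlap. Of those 8 markers 2 were called higher, Aldh1l1 (0.40 ± 0.07) and Sox9 (0.22 ± 0.07), and 2 lower, Aqp4 (-0.72 ± 0.07) and Gja1 (-0.28 ± 0.07), all named after their values were seen. The sums of 5 other lists did not overlap between the genotypes at day 20, namely those of oligodendrocytes, endothelium, microglia, meningeal fibroblasts and erythrocytes. Among all tested genes taken singly, 20.1% did not overlap at day 20, 19.4% were called higher and 19.5% lower. The marker counts of day 20 here and in the next paragraph stand beside those shares. Oligodendrocyte markers summed to 11536 to 14632 CPM in dKO and 14765 to 19197 CPM in WT, with 0 of 6 higher and 2 lower, a count of lower genes that ran from 0 to 4 with 1 library left out (it was 4 without WT female day 10 replicate 3) and from 0 to 6 under other settings. Endothelial markers summed to 125 to 164 CPM in dKO and 193 to 209 CPM in WT, with 0 of 6 higher and 5 lower.

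Microglial markers summed to 52.7 to 90.8 CPM in dKO and 110 to 130.2 CPM in WT, with 5 of 6 lower. Meningeal fibroblast markers summed to 81.4 to 114 CPM in dKO and 145 to 219 CPM in WT, with 5 of 5 lower. Erythrocyte markers summed to 75.4 to 130.1 CPM in dKO and 316 to 669 CPM in WT, with 5 of 5 lower. Choroid plexus markers summed to 210 to 503 CPM in dKO and 489 to 635 CPM in WT, with 3 of 5 lower. Neuronal markers summed to 2460 to 2864 CPM in dKO and 2801 to 2979 CPM in WT, with 1 of 5 lower, a call lost in 14 of 23 fits with 1 library left out. Granule neuron markers summed to 1420 to 1604 CPM in dKO and 1189 to 1702 CPM in WT, with 0 of 5 called. At day 10 the calls were 4 of 6 oligodendrocyte markers lower and 1 of 5 neuronal markers higher, and 0 in the other 7 lists, and without dKO male day 10 replicate 2 0 in all 9. Of all tested genes 3.88% were called higher and 1.91% lower at day 10. No marker was at 0 in any group, no list summed higher in every dKO library than in every WT library at day 20, and the part of any cell type in their levels was not tested.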

How the data were processed

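Stranded mRNA libraries were made with TruSeq Stranded mRNA, per the labels' protocols. Each library has a file of raw gene counts that the authors deposited. STAR 2.5.2b, HTSeq and GRCm38.p5 are named in the submitters' processing notes; which tool counted, and on which annotation, is not stated there. Counts on the reverse strand were taken, because forward counts came to just 5.22 to 7.46% of them in the 23 libraries. The 4 entries that name no gene were left out (no-feature reads alone were 41.7 to 47.5% of reads). GENCODE M21 on GRCm38 gave symbols and positions for 50376 identifiers, and 310 had no match.

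Counts were tested in R 4.3.3 with edgeR 4.0.16 (filterByExpr by group, TMM, 8 group means, glmQLFit with robust estimation, glmQLFTest, two-sided), with Benjamini-Hochberg adjustment over 21657 genes and calls under 0.05. CPM levels use TMM scaling, and log2 CPM a prior count of 2. Limits from counts cover counting error only. No libraries held identical counts. The test was tried on simulated data with changes set in a small part of the genes at day 20. That trial does not cover day 10 or a comparison with as many calls as here.

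The 6 genes and all gene lists were chosen with earlier results of these data known. Named genes were the 6 members, from each pathway list up to 4 called genes with the smallest p at day 20 and 2 at day 10, Pank1 and Pank2, and the 4 genes most correlated with each metallothionein; others are marked where they appear. The alternatives were no filter, a mean of at least 1 CPM, RLE size factors, unstranded counts, all 24 libraries, DESeq2 1.42.0, limma-voom (limma 3.58.1), 1 surrogate variable (sva 3.50.0), only the groups compared, each library left out and, chosen after seeing the data, edgeR's earlier dispersion estimate and the principal transcript length. Promoter sequences are RefSeq's on GRCm38.p6.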

Additional observations from a re-analysis of the deposited data

Results flagged for a closer look

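WT female day 10 replicate 3 stood apart from the other 5 WT libraries of day 10, by a gap large relative to their whole range, for Mt1 (61.7 CPM against 30.2 to 36.5 CPM), Mt2 (23.3 CPM against 9.89 to 14.3 CPM) and Mt3 (59.3 CPM against 38.2 to 44.7 CPM). Of 24 sets of libraries looked at, 3 were flagged in this way. All 3 flags came from that library, so they are not 3 separate signs. The 3 genes were also correlated over the libraries, but that correlation includes the flagged library. Chance flags about 1 set in 20 under the 95% critical value of Dixon's test. The effect of genotype differed between the days for Mt1, by 1.44 ± 0.21 on the log2 scale (edgeR adjusted p = 0.000101), and for Mt2, by 1.78 ± 0.28 (edgeR adjusted p = 0.000273). At day 20 all 6 dKO libraries were above all 6 WT libraries for both genes, and at day 10 the groups overlapped.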

How the results depend on the processing

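Of 588 values of the 6 genes (day 20, day 10 and the difference between the days, each under 10 other settings and with each of 23 libraries left out where they could be fitted), 573 kept their direction and side of the threshold, 0 lost a call, 4 gained one and 11 changed sign. At day 20 Mt1 ran from 1.19 to 1.33 and Mt2 from 1.41 to 1.60 with 1 library left out, and from 1.25 to 1.28 and 1.52 to 1.57 under the other settings. All calls of Mt1, Mt2 and Mtf1 in both sexes together at day 20 held. The median of all genes moved by at most 0.041. Lone libraries left in a group were assumed to vary like the others. No paired analysis was possible because the labels carry no replicate numbers: those used here follow the order of the samples within a group and pair nothing.

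For both sexes, Mt3 at day 20 gained a call with only the groups compared (-0.16) and ran from -0.20 to -0.12 with 1 library left out. At day 10, Mt3 changed sign with no filter (-0.00036) and with 1 surrogate variable (-0.18), and with 1 library left out Mt1 ran from -0.26 to 0.036, Mt2 from -0.37 to 0.022, Mt3 from -0.077 to 0.14 and Slc39a14 from -0.15 to 0.020. The difference between the days changed sign for Mt3 with 1 surrogate variable (0.012) and was called for Mtf1 there (-0.22), and Mt3 ran from -0.30 to -0.083 with 1 library left out.

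Genes called at day 10 numbered 841 higher and 413 lower, and depended on the setting: 344 and 264 with no filter, 5 and 4 with 1 surrogate variable, 4 and 2 with only the groups compared, with 978 lower by DESeq2 and 739 lower by limma-voom. With 1 library left out they ran from 9 to 2455 higher and from 7 to 2193 lower. The extremes were 9 and 7 without dKO male day 10 replicate 2 and 2455 and 2193 without dKO male day 10 replicate 1, the fit in which replicate 2, with choroid plexus markers at 7.42 CPM against 245 to 601 CPM in the other day 10 libraries, is the lone dKO male of day 10. The background at day 10 is therefore poorly fixed, and for all of these the cause was not tested.

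Within 1 sex, values near 0 changed sign. With 1 surrogate variable these were Mt3 in females at day 20 (-0.033), Slc30a1 in females at day 10 (-0.0070, and -0.0083 with no filter), Mt2 (-0.052), Mtf1 (0.084) and Slc39a14 (-0.053) in males at day 10, and the sex difference of Mtf1 at day 20 (-0.0026). With unstranded counts they were Mtf1 in males at day 10 (0.00033) and Mt2 in WT males against WT females (0.062). With 1 library left out, at day 20 Mt3 (-0.0012 to 0.099) and Slc39a14 (-0.075 to 0.027) in females, Slc30a1 in males (-0.050 to 0.014) and the sex difference of Mtf1 (-0.010 to 0.082) crossed 0. So did, at day 10, Slc30a1 in females (-0.018 to 0.047), and Mt2 (-0.036 to 0.21), Mtf1 (-0.10 to 0.067) and Slc39a14 (-0.14 to 0.19) in males, and, for WT males against females, Mt1 (-0.28 to 0.015), Mt2 (-0.23 to 0.16), Mt3 (-0.099 to 0.079) and Slc30a1 (-0.031 to 0.0093).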
